A study of Caenorhabditis elegans with 9 samples.

Results

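The 9 genes described here concern ribosome synthesis in the nucleolus. *rpoa-2*, *fib-1*, *rbd-1*, *lpd-6*, *nst-1*, *pro-1*, *pro-2* and *pro-3* encode nucleolar proteins that make or assemble ribosomes. *ncl-1* encodes a protein that holds ribosomal RNA synthesis back. All 9 were taken by WormBase name as nucleolar growth factors and make up 9 of the 46875 genes listed. The rule itself uses no measured value, but the genes were chosen with earlier results of these data known. All 9 passed the filter on low values, a level of 1 CPM or more in 3 or more libraries, which 13105 genes passed. CPM are a gene's reads scaled to a common library size. Gene expression was measured by RNA-seq of polyA RNA from whole late L2 larvae of *C. elegans* kept at 20 °C and 21% O2, with 3 biological replicates each of *sma-3(wk30)* mutants, *sma-9(ok1628)* mutants and wild-type N2 worms. SMA-3 is a Smad that transmits the BMP-like signal of DBL-1, and SMA-9 is a Schnurri zinc finger protein that works with Smads. Worms lacking either protein are small, and whether the smaller body went with other levels of nucleolar factors is the question addressed. Body size itself was not measured in these libraries. From these libraries and ChIP-seq, the authors had already reported ribosome biogenesis factors as enriched among direct targets of SMA-3 alone.

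The libraries held 58889275 to 82735807 gene reads, and each of the 9 factors had between 2364 and 90925 reads in every library. The *sma-3* transcript was at 12.6, 13.3 and 14.2 CPM in *sma-3* libraries, against 26.5, 21.4 and 22.4 CPM in wild-type. The *sma-9* transcript was at 173, 213 and 219 CPM in the libraries labelled *sma-9*, against 87.6, 89.4 and 119 CPM in wild-type. The transcript of the mutated gene was thus higher in the libraries that carry its name, which goes against a simple loss of the transcript. Counts per gene do not show which part of a transcript was read, so these values cannot decide whether the label holds. The *sma-3* transcript was also higher there than in wild-type, at 38.3, 37.25 and 36.59 CPM. These libraries are called the libraries labelled *sma-9* throughout. All values are shares of a library's reads, so a fall in CPM is a fall relative to the other transcripts and not in the amount of RNA per worm.

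Ribosomes are assembled in the nucleolus. RNA polymerase I transcribes the long precursor of the ribosomal RNAs, small nucleolar ribonucleoproteins (snoRNPs) modify it, and a succession of assembly factors cut and fold it into the small and the large subunit. Nucleolar size follows the rate of this synthesis in many cells, and in *C. elegans* loss of NCL-1 gives enlarged nucleoli and larger cells.

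Most of the 9 factors were lower in *sma-3* mutants. At an adjusted p of at most 0.05 (limma, Benjamini-Hochberg over all tested genes), 6 of 9 fell and 0 of 9 rose in *sma-3* relative to wild-type, where 12.2% of all tested genes fell and 9.36% rose. The 6 were *rbd-1*, *lpd-6*, *pro-2*, *pro-1*, *nst-1* and *fib-1*, with log2 fold changes from −0.61 to −0.41 on the scale of log2(CPM + 1), which is used for all fold changes below. None of the 9 had an unadjusted p under 0.05 on the higher side in any of the 3 comparisons. For 7 of 9, the 6 and *ncl-1*, all 3 *sma-3* values lay under all 3 wild-type values, as they did for 23.5% of tested genes. The median log2 fold change was −0.41 over the 9 factors and −0.01 over all tested genes. In worms sampled whole, fewer cells of a type and less of a transcript per cell cannot be told apart.

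**Figure D1:**
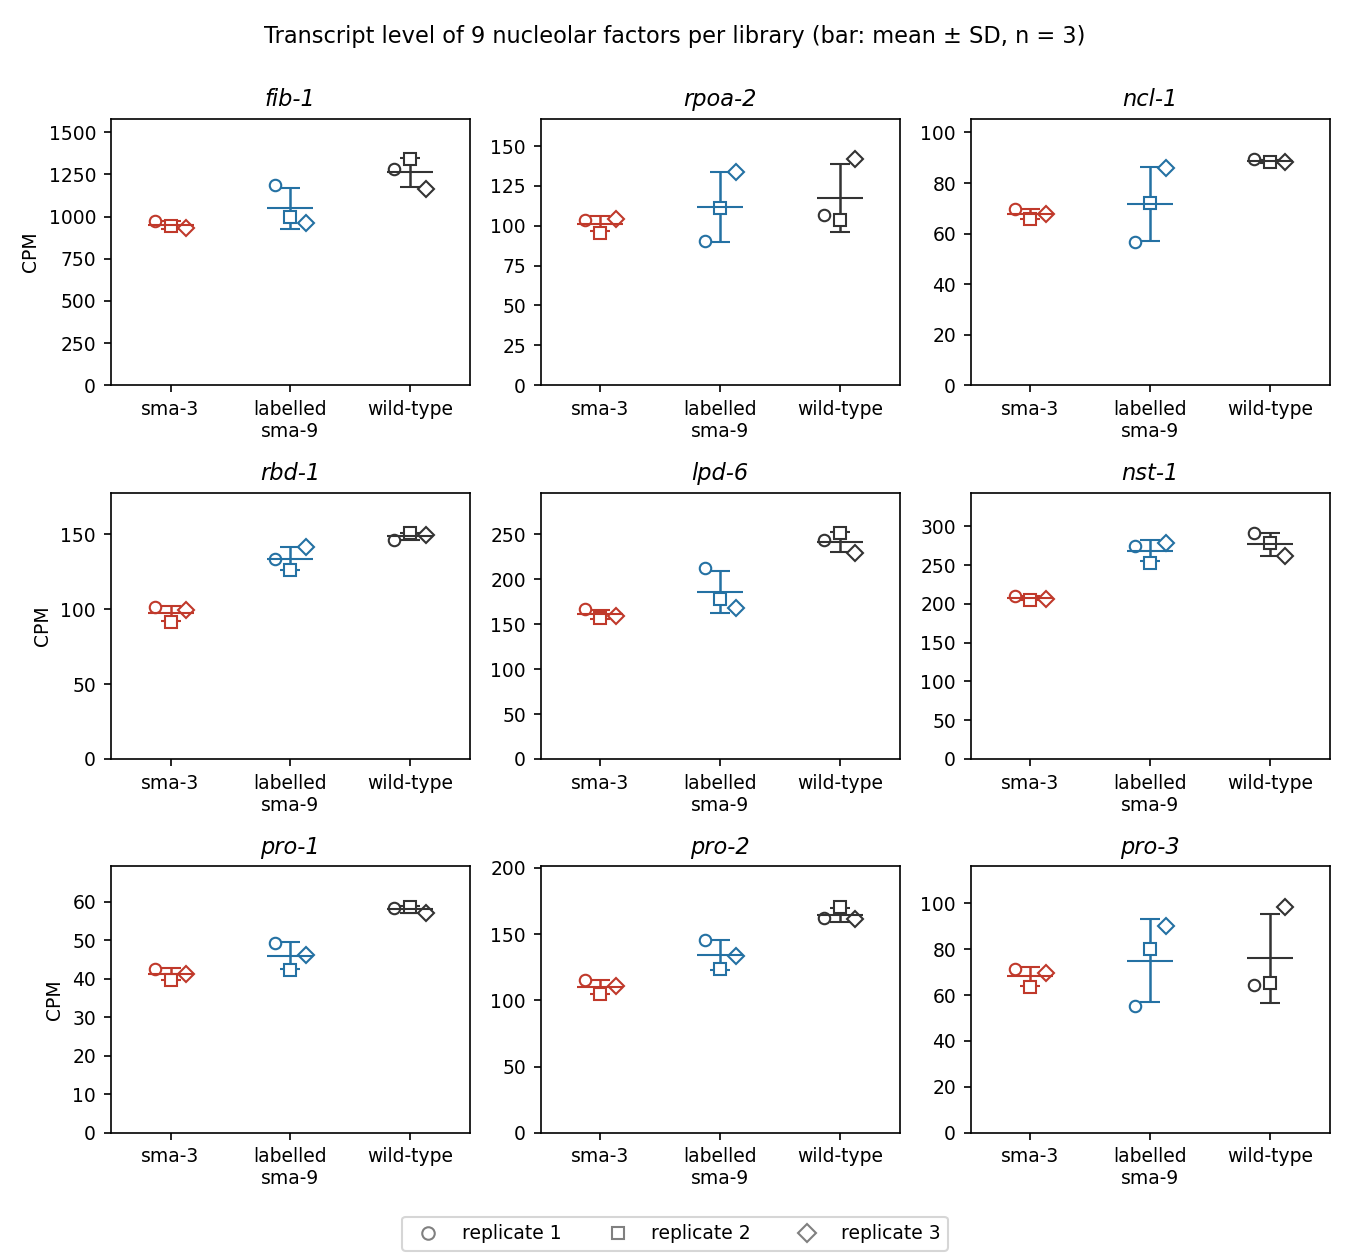
Transcript level in CPM (vertical axis, from 0) of each of the 9 factors in every library of *sma-3*, labelled *sma-9* and wild-type worms. Symbols are replicates and bars give the mean ± SD (n = 3). In 7 panels the 3 *sma-3* symbols lie under all wild-type symbols, and *rpoa-2* and *pro-3* are the panels where they overlap.

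In the libraries labelled *sma-9*, 2 of 9 factors fell relative to wild-type, *lpd-6* and *pro-1*, and 0 of 9 rose, where 3.85% of all tested genes fell and 3.02% rose. For 5 of 9 the values lay under all wild-type values, against 12% of tested genes. The median log2 fold change of the 9 was −0.27, beside 0.00 over all tested genes. These calls depended on single libraries. The count was 0 of 9 without wild-type replicate 1 or 2 or without labelled *sma-9* replicate 2 or 3, 1 of 9 without any 1 *sma-3* replicate, 4 of 9 without labelled *sma-9* replicate 1 and 3 of 9 without wild-type replicate 3. Both comparisons use the same wild-type libraries and are not independent of each other.

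Compared directly, 3 of 9 factors were lower in *sma-3* than in the libraries labelled *sma-9*: *rbd-1*, *nst-1* and *pro-2*. Over all tested genes 9.1% were called lower and 8.56% higher in this comparison, and of the 9 factors 0 were higher. For 4 of 9, these 3 and *lpd-6*, the *sma-3* values lay under all labelled *sma-9* values, against 22.8% of tested genes. The median log2 fold change of the 9 factors was −0.15, beside −0.02 over all tested genes.

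**Figure D2:**
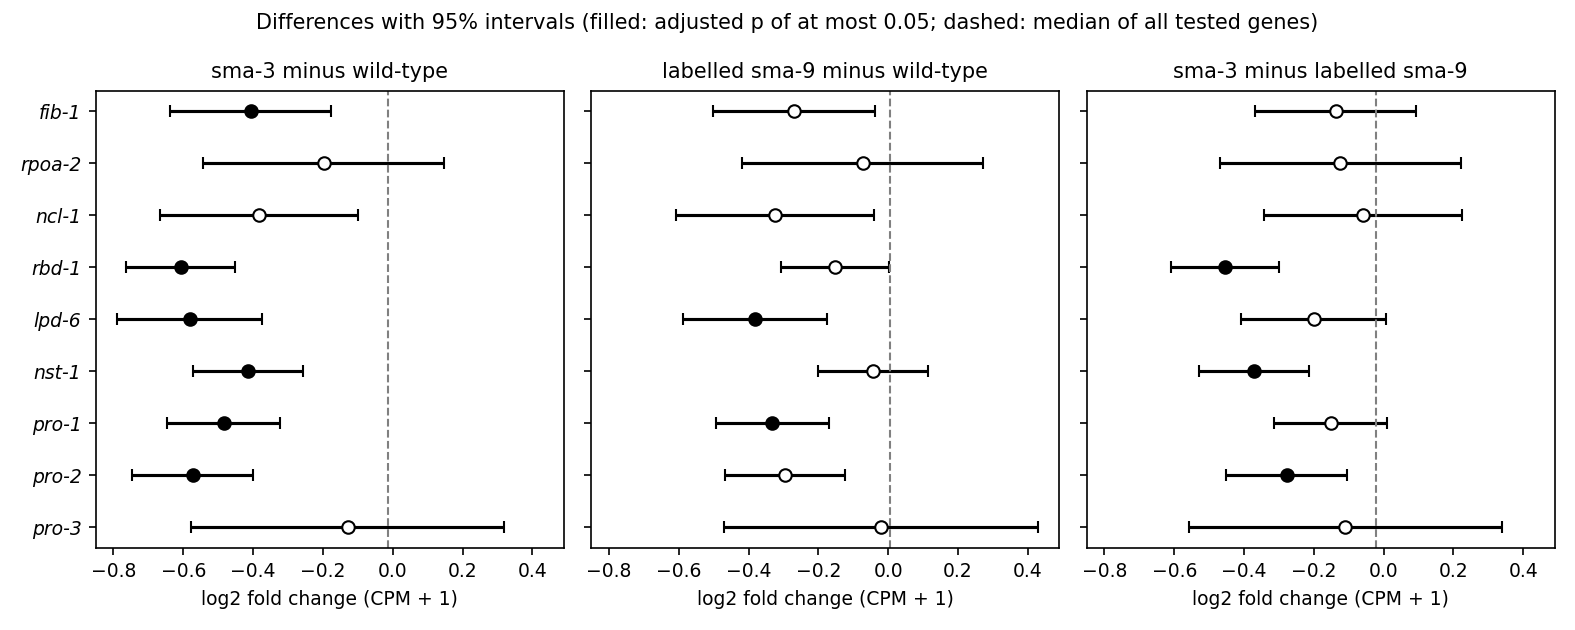
Log2 fold change (horizontal axis) of each factor with its 95% interval for *sma-3* minus wild-type (left), labelled *sma-9* minus wild-type (middle) and *sma-3* minus labelled *sma-9* worms (right). Filled points passed an adjusted p of at most 0.05, 6, 2 and 3 of 9 by panel, and every point lies on the side of lower values.

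The factors differ widely in level. Per kilobase of exon, *fib-1* was at 691 ± 16.1 CPM in *sma-3*, 763 ± 88.8 CPM in labelled *sma-9* and 918 ± 64.2 CPM in wild-type worms (SD, n = 3 each). Next came *nst-1*, at 115 ± 1.62, 148 ± 7.75 and 153 ± 8.30 CPM per kilobase in the same order of genotypes. In all 3 genotypes *lpd-6*, *pro-2* and *rbd-1* followed in that order, and no library of 1 of these genes overlapped with the next. In wild-type the lowest 4, *pro-1*, *rpoa-2*, *pro-3* and *ncl-1*, lay between 18.5 and 33.9 CPM per kilobase, and each overlapped with its neighbour in the order. The wild-type order put *pro-1* above *rpoa-2*, whereas in *sma-3* and labelled *sma-9* worms *rpoa-2* had the higher mean.

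Transcription of ribosomal RNA was represented by a core subunit of the enzyme and by an inhibitor. *rpoa-2* (WBGene00008781; chromosome I, 9280923 to 9286576 in WBcel235, minus strand) encodes the second largest subunit of RNA polymerase I. Its level was 104, 95.6 and 104 CPM in *sma-3*, 90.5, 111 and 134 CPM in labelled *sma-9* and 107, 104 and 142 CPM in wild-type replicates 1, 2 and 3. The *sma-3* libraries were close to wild-type replicates 1 and 2, and wild-type replicate 3 stood far above both. The log2 fold change in *sma-3* was −0.20 (95% interval −0.54 to 0.15, adjusted p = 0.399, limma). This interval holds the falls of *fib-1*, *nst-1* and *pro-1* but not the larger ones of *pro-2*, *lpd-6* and *rbd-1*. In labelled *sma-9* the log2 fold change of *rpoa-2* was −0.07 (−0.42 to 0.27).

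The other subunits of RNA polymerase I were measured with less spread. All 5 listed subunits fell in *sma-3*, beside 12.2% of all tested genes, with a median log2 fold change of −0.33. *rpac-19*, a subunit shared with RNA polymerase III, changed by −0.48 ± 0.10 SE (adjusted p = 0.0109, limma), and *rpoa-1*, the largest subunit, by −0.41 ± 0.08 (adjusted p = 0.00642). *rpac-40*, also shared with RNA polymerase III, and *rpoa-49* changed by −0.33 and −0.32. In labelled *sma-9* libraries 0 of 5 passed the test, with 2 of 5 at an unadjusted p under 0.05. The count in *sma-3* fell to 2 of 5 without *sma-3* replicate 1 or 3 or wild-type replicate 1 or 2, and to 1 of 5 without *sma-3* replicate 2 or with CPM scaled to equal totals.

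*ncl-1* (WBGene00003559; chromosome III, 7719729 to 7738105, plus strand) encodes a B-box and NHL domain protein that holds back ribosomal RNA synthesis and nucleolar growth. It was at 69.8, 65.9 and 67.7 CPM in *sma-3*, 56.7, 72.3 and 86.0 CPM in labelled *sma-9* and 89.4, 88.2 and 88.5 CPM in wild-type replicates. Every mutant library lay under the wild-type libraries, which differed by less than 2 CPM among themselves, while labelled *sma-9* replicates spread from the lowest value of all to just under wild-type. The log2 fold changes were −0.38 ± 0.13 SE in *sma-3* (adjusted p = 0.0574, limma) and −0.32 ± 0.13 in labelled *sma-9* (adjusted p = 0.169), and neither passed. The model takes 1 spread for all genotypes. With *sma-3* and wild-type libraries alone, the same difference had an adjusted p of 0.00732, and it also passed without labelled *sma-9* replicate 1 (0.00906) or replicate 3 (0.0236). Thus the level of the inhibitor lay on the same side of wild-type as the levels of the factors that make ribosomes.

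*fib-1* (WBGene00001423; chromosome V, 15000651 to 15002223, minus strand) encodes fibrillarin, the ribose methyltransferase of box C/D snoRNPs and a common marker of the nucleolus. Its level was 973, 947 and 929 CPM in *sma-3*, 1188, 999.8 and 959.7 CPM in labelled *sma-9* and 1280, 1339 and 1165.5 CPM in wild-type replicates. The *sma-3* libraries were the tightest group and lay under all wild-type libraries, whereas labelled *sma-9* replicate 1 lay above wild-type replicate 3. *fib-1* fell by 24.6% in *sma-3* (log2 fold change −0.41 ± 0.10 SE, adjusted p = 0.0222, limma). This call was lost, at adjusted p from 0.0581 to 0.0849, without any 1 of the *sma-3* replicates or without wild-type replicate 1 or 2. It was also lost without a filter (adjusted p = 0.055, limma) and at a threshold of 0.01. The change in labelled *sma-9* was −0.27 (95% interval −0.50 to −0.04, adjusted p = 0.162).

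Other proteins of snoRNPs had *sma-3* values on the same side. Of 6 tested, 5 fell in *sma-3*, beside 12.2% of all tested genes, with a median of −0.30. In labelled *sma-9* 0 of 6 passed, beside 3.85% of all tested genes called lower. There 5 of 6 had an unadjusted p under 0.05 and the median was −0.25. *nol-58* and *nol-56*, which form the core of box C/D snoRNPs with fibrillarin, changed by −0.37 ± 0.10 (adjusted p = 0.0329) and −0.31 ± 0.09 SE (adjusted p = 0.0369, limma) in *sma-3*. *dao-5*, a nucleolar phosphoprotein of the Nopp140 type, and *dkc-1*, the pseudouridine synthase dyskerin of box H/ACA snoRNPs, changed by −0.37 and −0.30. The count of 5 was among the least stable: it was 2 without *sma-3* replicate 1 or with equal totals, 1 without *sma-3* replicate 2 or 3 or wild-type replicate 1 or 2, and 0 with quantile normalization. In labelled *sma-9* the count was 3 without labelled *sma-9* replicate 1 and 2 without wild-type replicate 3.

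Over the 9 libraries, the pattern of *fib-1* was described by the root mean square difference of log2(CPM + 1) from each other gene, both centred on their own means. The nearest 5 genes were *suox-1*, *B0353.1*, *cri-3*, *tufm-1* and *sftb-2*, at 0.041 to 0.050 log2 units, where the median over 13104 genes was 0.258. *nol-58* ranked 7 and *nol-56* ranked 22, and all 6 tested snoRNP proteins were within the nearest 5% of genes, as were 7 of 13 other small subunit genes, 5 of 12 other large subunit genes, 33 of 66 mitochondrial ribosomal proteins and 5 of 10 DNA replication genes. Among the other 8 factors *lpd-6* ranked 70, *pro-1* 78 and *pro-2* 232. By contrast *rpoa-2* ranked 7673 and *pro-3* 9924, farther from *fib-1* than the median gene. These ranks share depth and libraries and are a description.

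*rbd-1* (WBGene00004315; chromosome IV, 12724986 to 12730095, plus strand) encodes an RNA-binding protein related to yeast Mrd1p, needed for the early cuts that release the RNA of the small subunit. It was at 101, 91.6 and 99.2 CPM in *sma-3*, 133, 126 and 142 CPM in labelled *sma-9* and 146, 151 and 149 CPM in wild-type replicates. The 3 groups did not overlap, with *sma-3* far below the others and labelled *sma-9* just below wild-type. Of the 9 factors *rbd-1* changed most in *sma-3*, where it fell by 34.4% (log2 fold change −0.61 ± 0.07 SE, adjusted p = 0.000794, limma), and 4.53% of tested genes had a lower or equal fold change. The change in labelled *sma-9* was −0.15 (95% interval −0.31 to 0.00, adjusted p = 0.23). Against labelled *sma-9* libraries, the *sma-3* value was lower by a log2 fold change of −0.45 ± 0.07 (adjusted p = 0.00287), the largest of the 9 in that comparison too.

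Of 13 other tested genes listed for the small subunit, 9 fell in *sma-3* and 2 in labelled *sma-9*. Over all tested genes 12.2% and 3.85% fell. The medians were −0.40 and −0.22. Genes were matched by symbol, and *imp-3* and *tsr-1*, kept in these counts and medians, may not be the homologs intended. *utp-20*, *nol-14* and *nol-10*, homologs of yeast factors of the small subunit processome, changed by −0.47 ± 0.09, −0.41 ± 0.06 and −0.41 ± 0.07 SE in *sma-3* (adjusted p = 0.0066, 0.00212 and 0.00379, limma). *rrp-1*, listed here although its yeast homolog acts on the large subunit, changed by −0.41. In labelled *sma-9*, the genes called were *nath-10*, an RNA acetyltransferase (log2 fold change −0.36, adjusted p = 0.00857), and *nol-14* (−0.33, adjusted p = 0.0112). *utp-20*, *rrp-1*, *riok-2* and *wdr-46* were lower in *sma-3* than in labelled *sma-9*, by −0.44, −0.31, −0.29 and −0.27, where 9.1% of tested genes were called lower. That count of 4 was 0 without *sma-3* replicate 2, 1 without *sma-3* replicate 3 and 2 without *sma-3* replicate 1 or labelled *sma-9* replicate 3. With equal totals the counts were 6 of 13 in *sma-3* and 0 of 13 in labelled *sma-9*.

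The large subunit was represented by 5 of the 9 factors, of which 4 fell in *sma-3*. *lpd-6* (WBGene00003062; chromosome I, 3144411 to 3147793, minus strand) is the homolog of yeast Ssf1, an early assembly factor. Its level was 167, 157 and 159 CPM in *sma-3*, 212, 178 and 168 CPM in labelled *sma-9* and 244, 251 and 229 CPM in wild-type replicates. All mutant libraries lay under wild-type, and labelled *sma-9* replicates reached down to just above the *sma-3* libraries. It fell by 33.2% in *sma-3* (log2 fold change −0.58 ± 0.09 SE, adjusted p = 0.0031, limma) and by 23.3% in labelled *sma-9* (−0.38 ± 0.09, adjusted p = 0.0381). Of 20 alternative analyses, 14 took the call in labelled *sma-9* away, with an adjusted p of at most 0.133.

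*pro-2* (WBGene00007413; chromosome II, 10339727 to 10345112, minus strand) is the homolog of yeast Noc2, which escorts precursors of the large subunit. In *C. elegans* the 3 *pro* genes are known for germline overgrowth when they are lost. *pro-2* was at 115, 105 and 111 CPM in *sma-3*, 146, 123 and 133 CPM in labelled *sma-9* and 162, 170.4 and 161 CPM in wild-type replicates. The groups did not overlap and lay in steps, with labelled *sma-9* between *sma-3* and wild-type. The log2 fold change was −0.57 ± 0.08 SE in *sma-3* (adjusted p = 0.00155, limma) and −0.30 ± 0.08 in labelled *sma-9* (adjusted p = 0.0527), which did not pass. The *sma-3* value was lower than labelled *sma-9* by −0.28 ± 0.08 (adjusted p = 0.0366). That last call was lost without any 1 *sma-3* replicate, without labelled *sma-9* replicate 1 or 3 and without wild-type replicate 1, at adjusted p up to 0.151.

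*pro-1* (WBGene00004185; chromosome II, 10539438 to 10541996, minus strand), a WD repeat protein and the homolog of yeast Ipi3, was at 42.6, 39.7 and 41.3 CPM in *sma-3*, 49.3, 42.4 and 46.2 CPM in labelled *sma-9* and 58.4, 58.7 and 57.0 CPM in wild-type replicates. Both mutants lay under wild-type, and labelled *sma-9* replicate 2 fell within the *sma-3* range. It fell by 28.5% in *sma-3* (log2 fold change −0.48 ± 0.07 SE, adjusted p = 0.00235, limma) and by 20.6% in labelled *sma-9* (−0.33 ± 0.07, adjusted p = 0.0235). The difference between both mutants was −0.15 (95% interval −0.31 to 0.01). The call in labelled *sma-9* was lost in 9 of 20 alternative analyses, with an adjusted p of at most 0.137.

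*nst-1* (WBGene00003821; chromosome II, 8281162 to 8283208, minus strand) encodes nucleostemin, a nucleolar GTPase needed for larval growth. It was at 211, 205 and 207 CPM in *sma-3*, 274, 253 and 279 CPM in labelled *sma-9* and 291, 278 and 261 CPM in wild-type replicates. Labelled *sma-9* and wild-type libraries were interleaved, and the *sma-3* libraries stood apart under both. *nst-1* fell by 24.9% in *sma-3* (log2 fold change −0.41 ± 0.07 SE, adjusted p = 0.00416, limma). In labelled *sma-9* the change was −0.04 (95% interval −0.20 to 0.11), whose sign turned with equal totals (0.08) and quantile normalization (0.11). The direct comparison of *sma-3* with labelled *sma-9* gave −0.37 ± 0.07 (adjusted p = 0.00787).

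*pro-3* (WBGene00012676; chromosome V, 19101347 to 19118412, minus strand), the homolog of yeast Sda1, was at 71.3, 63.5 and 69.5 CPM in *sma-3*, 55.1, 79.9 and 90.0 CPM in labelled *sma-9* and 64.3, 65.3 and 98.4 CPM in wild-type replicates. The *sma-3* values overlapped with wild-type, with *sma-3* replicate 2 just under the lowest wild-type value, and both other genotypes had 1 or more libraries far above their lowest. The log2 fold change was −0.13 in *sma-3* (95% interval −0.579 to 0.32) and −0.02 in labelled *sma-9* (−0.47 to 0.43). The *sma-3* interval holds the changes of the other factors except *lpd-6* (−0.582) and *rbd-1* (−0.608). The labelled *sma-9* interval holds the changes of all other factors there. Without wild-type replicate 3 both log2 fold changes of *pro-3* turned positive, to 0.07 and 0.18. *pro-3* shares 440 exon bases on the same strand with *zhp-4*, which did not exceed 1.86 CPM in any library.

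Of other genes listed for the large subunit, 8 of 12 tested fell in *sma-3*, beside 12.2% of all tested genes. In labelled *sma-9* 2 of 12 fell, beside 3.85%. The medians were −0.32 and −0.18. *nsun-5*, an RNA methyltransferase (log2 fold change −0.56 ± 0.09 SE, adjusted p = 0.00295, limma), *rbm-28* (−0.53 ± 0.06, adjusted p = 0.000828), *grwd-1* (−0.46) and *wdr-12*, the homolog of yeast Ytm1 (−0.44), had the largest changes in *sma-3*. In labelled *sma-9*, *rbm-28* (−0.35, adjusted p = 0.00891) and *nsun-1* (−0.29, adjusted p = 0.0227) fell. *grwd-1*, the GTPase gene *ngp-1* and the pescadillo homolog *lpd-7* were lower in *sma-3* than in labelled *sma-9*, by −0.42, −0.29 and −0.23, where 9.1% of tested genes were called lower. That count of 3 was 1 without *sma-3* replicate 2 or 3, without labelled *sma-9* replicate 1 or 3 and with the replicate block. Relative to wild-type, the count in *sma-3* was 5 of 12 without *sma-3* replicate 2 or 3 or with equal totals. In labelled *sma-9* it was 1 of 12 without *sma-3* replicate 2, labelled *sma-9* replicate 2 or 3 or wild-type replicate 1 or 2, and 0 with equal totals.

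**Figure D3:**
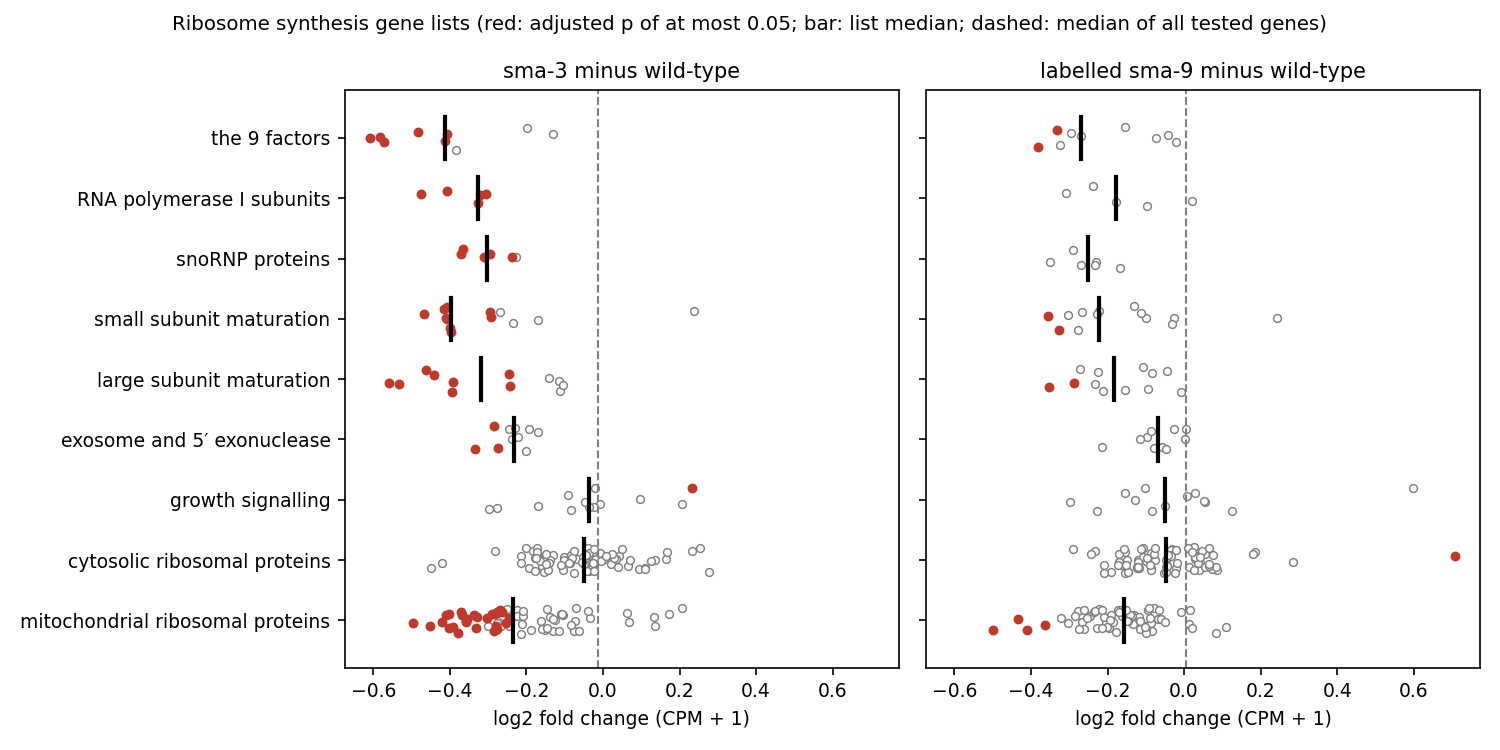
Log2 fold change (horizontal axis) of each tested gene in the lists of ribosome synthesis genes (rows), for *sma-3* against wild-type on the left and labelled *sma-9* against wild-type on the right. Red points passed an adjusted p of at most 0.05 and bars are list medians. The 9 factors have a median of −0.41 on the left and −0.27 on the right, while cytosolic ribosomal proteins have −0.05 on both sides.

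Genes further from the nucleolar steps gave other counts. Of the RNA exosome, which trims precursor RNAs, and the exonuclease XRN-2, 3 of 10 fell in *sma-3*, beside 12.2% of tested genes. They were *dis-3* (−0.33), the helicase *mtr-4* (−0.28) and *exos-7* (−0.27). The count was 0 of 10 without *sma-3* replicate 2 or with equal totals, and 1 of 10 without *sma-3* replicate 1 or 3 or wild-type replicate 1. At an unadjusted p under 0.05 (limma), however, 9 of these 10 were lower and 0 higher, with a median of −0.23. For all 10 the *sma-3* values lay under all wild-type values, against 23.5% of tested genes. Of 76 cytosolic ribosomal protein genes, whose products are assembled with RNA, 0 fell and 0 rose in *sma-3*, beside 12.2% and 9.36% of tested genes. At an unadjusted p under 0.05 (limma), 2 were lower and 1 higher. The summed level of all 77 listed was 151220, 150750 and 114800 CPM in wild-type replicates. It was 129760 to 133220 CPM in *sma-3*. With such a spread in wild-type, a lack of calls does not show that these genes were unchanged. Their median of −0.05 turned to 0.04 with equal totals and to 0.02 and 0.004 without wild-type replicate 1 and replicate 2, and without wild-type replicate 3 it was −0.20 in both mutants. Without that library 4 of 76 were called lower in *sma-3* and 1 of 76 in labelled *sma-9*, and without labelled *sma-9* replicate 1 the count in *sma-3* was 2 of 76. In labelled *sma-9*, *rpl-37* rose (log2 fold change 0.71 ± 0.17 SE, adjusted p = 0.0363) and 0 of 76 fell, where 0 had an unadjusted p under 0.05 on the lower side. The call of *rpl-37* was lost without any 1 *sma-3* or labelled *sma-9* replicate and without wild-type replicate 1. Mitochondrial ribosomal proteins, assembled outside the nucleolus, fell in 27 of 66 cases in *sma-3*, beside 12.2% of tested genes, and in 4 of 66 in labelled *sma-9*, beside 3.85%. *mrpl-4* (−0.50) and *mrpl-21* (−0.45) had the largest falls in *sma-3*. The count in labelled *sma-9* was 15 without wild-type replicate 3 and 2 with equal totals. In *sma-3* the count was 7 without *sma-3* replicate 2, 9 without *sma-3* replicate 1 or 3, 11 without wild-type replicate 1, 10 without wild-type replicate 2, 11 with equal totals and 39 without wild-type replicate 3.

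Genes of growth signalling that act upstream of ribosome synthesis, the TOR, S6 kinase, AMPK and MML-1 genes, gave 0 of 13 lower and 1 of 13 higher in *sma-3*, where 9.36% of tested genes rose. The gene that rose was *aak-2*, a catalytic subunit of AMPK, which holds growth back when energy is low. It changed by 0.23 ± 0.06 SE relative to wild-type (adjusted p = 0.0172, limma) and by 0.34 ± 0.06 relative to labelled *sma-9* (adjusted p = 0.00411). The call against wild-type was lost without any 1 *sma-3* replicate, and without wild-type replicate 3, 2 of 13 were called lower in *sma-3* and 1 of 13 in labelled *sma-9*. In labelled *sma-9* 0 of 13 passed, and 0 of 13 had an unadjusted p under 0.05 in either direction.

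Markers of cell types were compared beside these results. Over all tested genes 12.2% fell and 9.36% rose in *sma-3*, and 3.85% fell and 3.02% rose in labelled *sma-9*. For 14 germline markers the summed level was 568 to 649 CPM in *sma-3*, 554 to 699 CPM in labelled *sma-9* and 535 to 696 CPM in wild-type, ranges that overlap. In either mutant 0 of 14 fell, and 0 of 14 had an unadjusted p under 0.05 on the lower side, while *mex-3* rose in *sma-3*. All 6 intestinal markers fell in labelled *sma-9* libraries (summed 2127 to 2549 CPM, against 3156 to 3478 CPM in wild-type), and 0 of 6 fell in *sma-3* (2922 to 3060 CPM), where 1 of 6 was lower at an unadjusted p under 0.05. The count of 6 was 0 with only the labelled *sma-9* and wild-type libraries fitted, 2 without labelled *sma-9* replicate 3 or wild-type replicate 2, and 3 without wild-type replicate 1, without a filter or with quantile normalization. Of 10 DNA replication genes, 2 fell in *sma-3*, with sums of 662 to 669 CPM against 718 to 787 CPM in wild-type. There 5 of 10 were lower and 0 higher at an unadjusted p under 0.05 (limma), with a median log2 fold change of −0.20. For 6 of 10 the *sma-3* values lay under all wild-type values, against 23.5% of tested genes. In labelled *sma-9* 0 of 10 fell (660.4 to 826 CPM), and 2 of 10 were lower at an unadjusted p under 0.05. The count of 2 called in *sma-3* was 5 without labelled *sma-9* replicate 1. It was 0 without any 1 *sma-3* replicate, without labelled *sma-9* replicate 2 or without wild-type replicate 1 or 2. It was also 0 without a filter, with equal totals or with quantile normalization. Of 7 hypodermal markers, *dpy-7* fell and *bli-1* and *grd-10* rose in *sma-3*, and 0 of 7 changed in labelled *sma-9*, also at an unadjusted p under 0.05. Summed levels of the 7 were 3071 to 3742, 2297 to 4441 and 3114 to 5826 CPM in *sma-3*, labelled *sma-9* and wild-type. Of 5 body wall muscle markers 0 passed the test in limma in either mutant. At an unadjusted p under 0.05, 1 of 5 was higher in *sma-3* and 1 of 5 was lower in labelled *sma-9*. Their summed levels were 10039 to 10674 CPM in *sma-3*, 8449 to 9836 CPM in labelled *sma-9* and 9967 to 10954 CPM in wild-type. No marker was at 0 in these lists, and the part of these cell types in the results on the 9 factors was not tested.

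Within a library the factors other than *ncl-1* mostly lay to 1 side. Their mean log2 difference from the wild-type mean was −0.38, −0.48 and −0.42 in *sma-3*, −0.20, −0.24 and −0.14 in labelled *sma-9* and −0.03, −0.01 and 0.05 in wild-type replicates. The same mean over all tested genes was between −0.02 and 0.03 in every library. Of the 8 factors, 7, 8 and 6 lay under the lowest wild-type value in the *sma-3* replicates and 6, 6 and 5 in the labelled *sma-9* replicates. Over all tested genes 32.7%, 33.4% and 31.3% did so in the *sma-3* replicates and 24.6%, 29.5% and 29.1% in the labelled *sma-9* replicates. The 3 groups did not overlap in this mean, which is a description of genes chosen together.

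The libraries also carry a number in their names, 14 to 16 in *sma-3*, 7, 8 and 10 in labelled *sma-9* and 6, 7 and 9 in wild-type, and what it stands for is not stated. *rpoa-2* and *pro-3* were high at numbers 9 and 10 and low at 6 and 7. Within libraries numbered up to 7, labelled *sma-9* differed from wild-type by −0.22 for *rpoa-2* and −0.23 for *pro-3*, and within numbers 8 to 10 by −0.22 and −0.21. The corresponding values were −0.22 and −0.41 for *lpd-6*, −0.24 and −0.36 for *pro-1*, −0.19 and −0.33 for *pro-2*, and −0.64 and −0.16 for *ncl-1*. They were −0.14 and −0.25 for *fib-1*, −0.15 and −0.16 for *rbd-1*, and −0.05 and 0.02 for *nst-1*. The lower range sets 1 labelled *sma-9* library against 2 wild-type libraries and the upper range 2 against 1. Of the 9 factors 8 were lower in both ranges, as were 31.3% of tested genes, with no test. With the range as a term of the model, 0 of 9 passed, beside 3.66% of tested genes called lower, and the adjusted p was 0.0547 for *lpd-6* and 0.0637 for *pro-1*. All *sma-3* numbers lie above the others, so for *sma-3* the number and the genotype cannot be told apart.

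**Figure D4:**
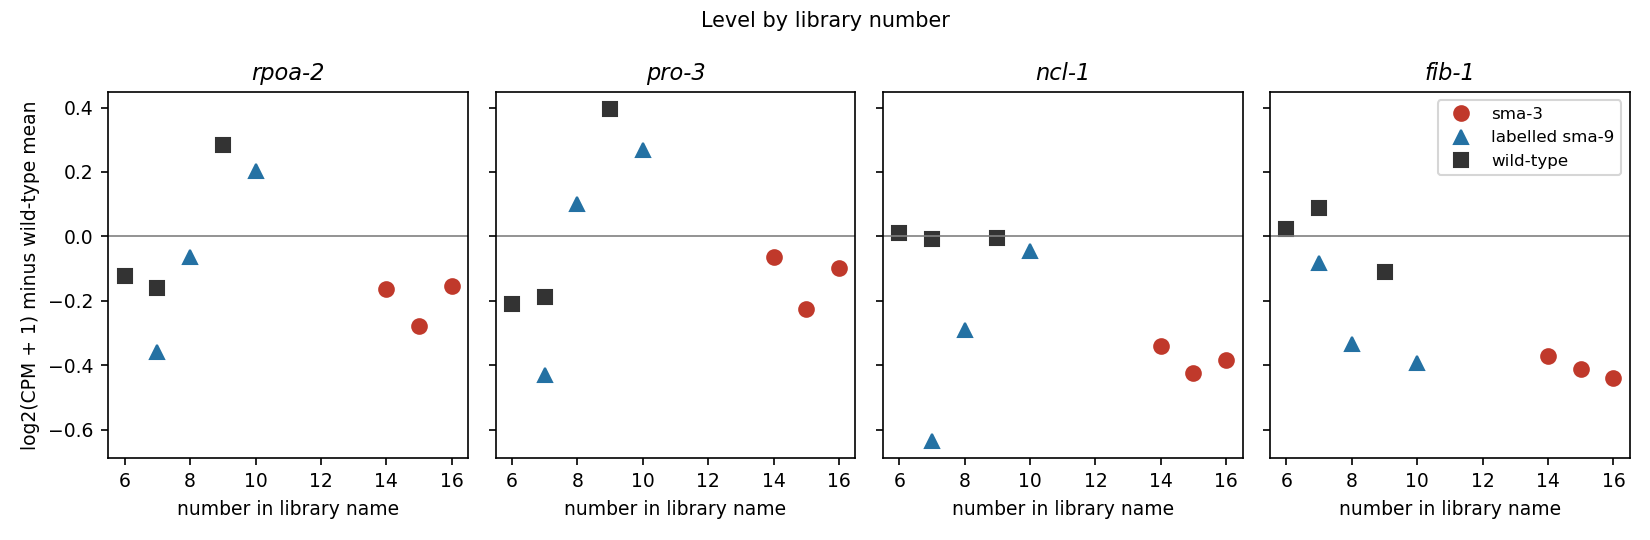
Difference in log2(CPM + 1) from the wild-type mean (vertical axis) against the number in the library name (horizontal axis) for *rpoa-2*, *pro-3*, *ncl-1* and *fib-1*, with 1 point per library. *rpoa-2* and *pro-3* are highest in the wild-type library numbered 9, and all *sma-3* libraries have numbers from 14 to 16.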

How the data were processed

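Total RNA was isolated from synchronized late L2 worms, and polyA RNA was sequenced as paired ends. The authors mapped the reads to WS245 with STAR (version 2.5.1a), counted them per gene, normalized them with edgeR and deposited log2 CPM values, with a prior averaging 2 reads added before the log2. Strand setting and treatment of reads that fit several genes are not given in the sources used here, so overlapping genes are uncertain. The prior was removed, and whole reads were recovered (within 0.05 of a read) for 100% of values in each library. Of 46875 gene identifiers, 46821 matched the WBcel235 annotation, which WS245 shares. In the deepest library 3 reads correspond to 0.035 CPM and in the shallowest to 0.0503 CPM.

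Genes that reached 1 CPM in 3 or more libraries were fitted as log2(CPM + 1), which understates changes of low genes, with 1 coefficient per genotype in limma (version 3.58.1, R 4.3.3; Python 3.11.15, numpy 2.4.6, pandas 2.3.3, matplotlib 3.10.9). Each comparison's p-values (two-sided) received the Benjamini-Hochberg adjustment over all tested genes. The labels call the 3 samples of a genotype biological replicates. The script was tested on simulated data. Named genes are the 9 factors, *sma-3* and *sma-9*, up to 4 called genes per list, comparison and direction with the largest fold change, and the 5 genes nearest to *fib-1*; markers and other genes were named after their values were seen. Members and lists were chosen with earlier results of these data known. List names were matched by gene symbol, and some matched no gene. A gene was found for 7 of 8 snoRNP, 13 of 15 small subunit and 12 of 16 large subunit names. The same held for 11 of 13 exosome and exonuclease names. Of the matched genes, 6 snoRNP and 10 exosome and exonuclease genes passed the filter. Alternatives were other pseudocounts, filters, scalings, models and thresholds, and each replicate left out in turn. Promoter sequences and the ChIP-seq data were not analysed here.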

Additional observations from a re-analysis of the deposited data

How the results depend on the processing

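In *sma-3* against wild-type, *rbd-1*, *lpd-6*, *pro-1*, *pro-2* and *nst-1* passed in all 19 alternatives, and the count of factors called lower was 5 to 7. In *sma-3* against labelled *sma-9* it was 2 or 3, with *rbd-1* and *nst-1* passing in all 19. For labelled *sma-9* against wild-type the count of 2 became 0 with equal totals, with library number as a term, with only these genotypes fitted, with the replicate block and at an adjusted p of at most 0.01, and 1 without a filter or with quantile normalization. Leaving out 1 replicate gave 0 to 4. Correlations of deviations from group means were −0.63 to 0.40 between same-numbered replicates. Such deviations sum to 0 within a genotype, so these values cannot decide whether replicate numbers pair the libraries. Labelled *sma-9* replicate 1 had 0.61 with wild-type replicate 2, both with library number 7, and −0.59 with wild-type replicate 3. Labelled *sma-9* replicate 2, number 8, had a similar 0.58 with wild-type replicate 3, number 9. With the replicate block 6 factors were called in *sma-3* and 2 in *sma-3* against labelled *sma-9*.

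Equal totals moved the median of all genes to 0.07 in *sma-3* and to 0.11 in labelled *sma-9*, and the medians of the 9 factors to −0.32 and −0.15. Calls over all genes became 880 lower and 1572 higher in *sma-3* (main analysis 1596 and 1227), and 261 and 554 in labelled *sma-9* (505 and 396). In labelled *sma-9* against wild-type, the sign turned with equal totals for *nst-1* (0.076), *pro-3* (0.097) and *rpoa-2* (0.044), and for the list medians of the exosome (0.046), growth signalling (0.066) and cytosolic ribosomal proteins (0.071). With quantile normalization it turned for *nst-1* (0.107), *pro-3* (0.040), *rpoa-2* (0.010) and cytosolic ribosomal proteins (0.109). Leaving out 1 replicate gave −0.084 to 0.0007 for *nst-1*, −0.164 to 0.184 for *pro-3* and −0.212 to 0.069 for *rpoa-2*. In *sma-3* against wild-type it gave −0.234 to 0.069 for *pro-3*, and the list median turned for growth signalling with equal totals (0.058) and for cytosolic ribosomal proteins with equal totals (0.042) and quantile normalization (0.0017). In *sma-3* against labelled *sma-9* it gave −0.215 to 0.081 for *ncl-1*, −0.314 to 0.035 for *pro-3* and −0.266 to 0.014 for *rpoa-2*. Leaving out 1 replicate also turned list medians of cytosolic ribosomal proteins (−0.200 to 0.021 in *sma-3* and −0.199 to 0.025 in labelled *sma-9*, against wild-type) and of growth signalling (−0.109 to 0.013 in labelled *sma-9* against wild-type). The cause of these changes was not tested.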

Other observations

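*rps-16*, a ribosomal protein gene chosen here after its values were seen, lies on the same strand as *fib-1* with 109 bases between them. It was at 1461, 1516 and 1525 CPM in *sma-3*, 1748, 1430 and 1379 CPM in labelled *sma-9* and 1752, 1724 and 1245 CPM in wild-type replicates, so that all groups overlapped. Relative to wild-type it differed by −0.05 log2 units in *sma-3* (95% interval −0.39 to 0.28) and −0.04 in labelled *sma-9* (−0.38 to 0.29).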
